A study of Gallus gallus with 40 samples.

Results

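The liver genes examined here sit on the growth hormone and thyroid hormone axes: TTR (transthyretin), GHR (growth hormone receptor), IGFBP2 (insulin-like growth factor binding protein 2) and DIO1 (type 1 iodothyronine deiodinase). Members were all probes whose gene symbol in the array's annotation table was one of these 4. This gave 6 cDNA clones on 35 spots, of 18547 clones on the array. Of the 6 clones, 5 had enough values to be tested, among 6432 clones tested in all.

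The livers came from chickens of 2 lines, high growth (HG) and low growth (LG), selected divergently on body weight at 8 and 32 weeks of age and raised under a standard broiler protocol. On each array of a spotted cDNA platform, RNA of HG birds was set against RNA of LG birds of the same age, with the dye Alexa Fluor 555 on 1 line and Alexa Fluor 647 on the other. The 2 youngest ages, 1 and 3 weeks, had 12 arrays apiece, and 5, 7, 9 and 11 weeks had 4. The lines differ by long selection over the whole genome, with no single allele or treatment named, and the sex of the birds is not given in the sources used here.

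In the liver, pituitary growth hormone acts through its receptor on JAK and STAT proteins and raises the output of insulin-like growth factor, whose availability is set in part by binding proteins such as IGFBP2. Transthyretin is made by hepatocytes and secreted, and carries thyroid hormone and, with retinol binding protein, retinol in the blood. Deiodinase 1 removes iodine from the outer or the inner ring of thyroid hormones, so that it can activate thyroxine or clear its products. In chickens, growth hormone is known to act on thyroid hormone breakdown in the liver, which ties the axes together during growth.

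All values below are log2 ratios of HG over LG, signed as if the deposited ratio were Alexa Fluor 647 over 555. For each clone 1 dye effect, shared by all ages of the fit, was removed. A dye effect that differs between ages stays in the values of single arrays, where it sets arrays of opposite orientation apart. The labels name the dye of each line on each array, but the numerator of the deposited ratio is not given in the sources used here, so the direction is not settled. Over all spots, and without the 2 near-identical arrays described below, the correlation between arrays had a median of 0.21 for pairs of the same dye orientation. It was 0.13 for pairs of opposite orientation. Among all 40 arrays the lowest pair of the same orientation stood at -0.35, so that at least 1 such pair ran opposed. That pair may hold 1 of the near-identical arrays. A negative value means lower in HG than in LG as read here, and higher in HG with the sign turned. Every sign turns together, so sizes, p-values and the order of clones by absolute size do not depend on this choice. Ranks from the most negative, given below, become ranks from the most positive with the sign turned. HG and LG levels by themselves cannot be read from a ratio.

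The 35 spots split unevenly. TTR had clone BG711897 on 1 spot and clone BI393775 on 2 spots. GHR had clone AW198548 and IGFBP2 had clone BI391593, each on 1 spot. DIO1 had clone BG710220 on 1 spot and clone AA495711 on 29 spots, which lie in 28 of the 48 blocks of the array, 23 of them at the same place within the block (row 18, column 14). Between 10 and 22 of these spots had a value on an array. Clone BG710220 had a value on every array from 5 to 11 weeks, on 1 of 10 arrays used at 3 weeks and on 0 of 12 at 1 week, so it missed the filter and was fitted with the arrays of 5 to 11 weeks alone. The cDNA sequences of the clones were not used here.

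Over the whole array, between 7291 and 13434 of 19200 spots had a value on an array, and the array medians of the ratio ran from 0.966 to 1.015. Replicates 3 and 4 at 3 weeks held nearly the same values (Pearson r = 0.99988 over 9493 spots, median absolute log2 difference 5.38e-05) under opposite dye labels, and any other pair of arrays reached at most 0.80. Both were left out, which leaves 38 arrays and 10 at 3 weeks. Replicates 5 to 12 at 1 and 3 weeks form a second round of hybridisation that reused birds of the first round beside new ones. Since shared birds cannot be matched to arrays from the labels, p-values treat arrays as replicates, which by itself makes them too small. This touches every contrast, since 22 of the 38 arrays are of these 2 ages and all ages share the estimate of the spread. With the first round alone at 1 and 3 weeks, TTR kept its calls at 7 weeks and missed the threshold at 5 weeks (adjusted p = 0.18 for BG711897 and 0.66 for BI393775, in limma). In the mean over ages BI393775 missed it as well (adjusted p = 0.061 in limma). No test of a difference between ages was passed by a member clone in that fit. Hepatocyte marker genes were measured throughout: 14 of 15 were on the array, and of their 25 clones 14 had a value on every array. A ratio of bulk liver cannot tell fewer cells of a type from less RNA per cell.

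TTR was the only one of the 4 genes with clones past the threshold, and it differed between the lines at 5 and 7 weeks, by 1.54-fold to 3.10-fold depending on age and clone. Both TTR clones were negative at these ages, that is lower in HG with 647 over 555 and higher in HG with the sign turned. At 9 weeks both were near 0. GHR, IGFBP2 and the DIO1 clone AA495711 passed at no age, in the mean over ages, or in any contrast between ages.

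At 7 weeks the 4 arrays gave -1.40, -2.36, -1.55 and -1.23 for TTR clone BG711897. For clone BI393775 they gave -0.61, -0.76, -0.98 and -1.88. All 8 values were negative, and the order of the arrays differed between the clones. The line effect was -1.63 (SE 0.27, n = 4 arrays, 3.10-fold, adjusted p = 8.94e-05 in limma) for BG711897. It was -1.06 (SE 0.16, 2.08-fold, adjusted p = 2.47e-05 in limma) for BI393775. With the sign turned these are 1.63 and 1.06. The SEs rest on a spread shared by all ages. For BI393775 the SD over the arrays was 0.57 at 7 weeks, against 0.11 at 1 week and at 3 weeks. For BG711897 it was 0.50 at 7 weeks, against 0.53 at 1 week and 0.27 at 3 weeks. Of all clones tested, 2.91% passed at 7 weeks, and the median over all of them was 0.03. By size, BG711897 ranked 11 and BI393775 ranked 39 from the most negative of 6432. Both calls held when any single 7-week array was left out. Both were lost with arrays weighted by their estimated quality, at -1.52 (adjusted p = 1.00 in limma) for BG711897 and -1.17 (adjusted p = 0.072) for BI393775. BG711897 also missed the threshold with arrays scaled to the same spread (-0.89, adjusted p = 0.070), and BI393775 with each age fitted alone (adjusted p = 0.18). These settings cut the calls over all clones too. At 7 weeks 0 of 6432 clones passed with weights, 21 with scaling and 25 with each age alone, against 187 in the main fit.

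The untransformed ratios show how the dye labels enter. At 7 weeks the log2 deposited ratio of BG711897 lay between -1.27 and -1.11 on the arrays with HG on 647, and between 1.51 and 2.65 on those with HG on 555. That of BI393775 lay between -0.72 and -0.35 with HG on 647, and between 1.03 and 2.14 with HG on 555. The ratio of both clones thus changed sign with the dye of the lines. The dye effect fitted over all arrays was 0.29 for BG711897 and 0.27 for BI393775. If the authors had already turned the ratios to HG over LG, the 7-week line effects would be 0.45 (adjusted p = 0.33 in limma) and 0.53 (adjusted p = 0.056).

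At 5 weeks BG711897 gave -1.45, -2.06, -2.12 and 0.63, so that 3 arrays were strongly negative and replicate 4 was positive. BI393775 gave -0.61, -1.64, -0.23 and -0.02, all negative, with replicate 4 the nearest to 0. The line effect was -1.25 (SE 0.27, 2.38-fold, adjusted p = 0.0112 in limma) for BG711897, the most negative of the 6432 clones. For BI393775 it was -0.63 (SE 0.16, 1.54-fold, adjusted p = 0.0436 in limma). Turned, they are 1.25 and 0.63, and 0.777% of all clones passed at 5 weeks. Their SEs rest on a spread shared by all ages, not on that of the 4 arrays. At 5 weeks the SD over the 4 arrays was 1.29 for BG711897 and 0.72 for BI393775. At 1 week it was 0.53 and 0.11, and at 3 weeks 0.27 and 0.11, so the shared spread understates that of 5 weeks. Replicate 4 at 5 weeks was known from earlier results as an array that runs against its dye label over all clones. Without it the effects were -1.90 and -0.83, with adjusted p of 1e-06 and 0.00131 in limma. The array was picked from these same data, so the fit without it is no independent test. With all 3 arrays that run against their dye labels left out, 944 of 6384 clones passed at 5 weeks, against 50 of 6432 in the main fit. Without replicate 1, 2 or 3, BG711897 missed the threshold (adjusted p up to 0.42), and without replicate 1 or 2 so did BI393775 (up to 0.87). With the arrays of 5 to 11 weeks fitted alone neither clone passed at 5 weeks (adjusted p = 0.40 for BG711897 and 1.00 for BI393775, in limma), and only BG711897 passed at 7 weeks.

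**Figure D1:**
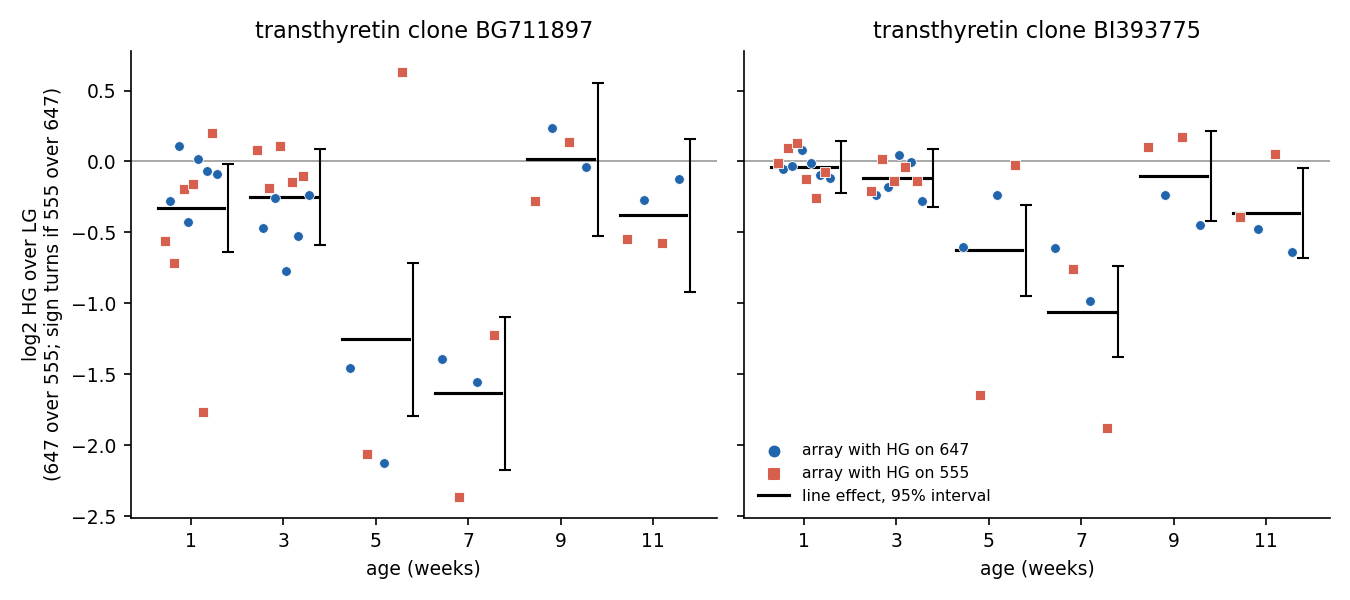
Log2 ratio of HG over LG liver (y axis, signed as 647 over 555) for the 2 TTR clones by age in weeks (x axis, evenly spaced). Each point is 1 array, circles with HG on 647 and squares with HG on 555; black lines are fitted line effects and bars their 95% intervals. At 7 weeks all 4 arrays lie below 0 in both panels, and at 9 weeks they lie on either side of it.

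At 9 weeks TTR BG711897 gave -0.28, 0.24, 0.14 and -0.04, and BI393775 gave 0.10, -0.24, 0.17 and -0.44. The arrays fell on both sides of 0 in both clones. The line effects were 0.02 (95% interval -0.52 to 0.55) for BG711897 and -0.10 (-0.42 to 0.22) for BI393775, neither past the threshold, at an age when 0.84% of all clones passed. The change between 7 and 9 weeks was itself tested. It came to 1.65 (SE 0.38, adjusted p = 0.0247 in limma) for BG711897 and 0.96 (SE 0.22, adjusted p = 0.0284) for BI393775, in a contrast that 0.591% of all clones passed. With the sign turned these differences are -1.65 and -0.96. The call for BG711897 was lost without replicate 3 at 7 weeks or replicate 2, 3 or 4 at 9 weeks. The call for BI393775 was lost without replicate 3 or 4 at 7 weeks or replicate 1, 2 or 3 at 9 weeks. The highest adjusted p in these fits was 0.10 and 0.16.

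At 11 weeks BG711897 was negative on 4 of 4 arrays (-0.55, -0.27, -0.57 and -0.12) and BI393775 on 3 of 4 (-0.39, -0.48, 0.05 and -0.64). The line effects were -0.38 (adjusted p = 1.00 in limma) and -0.36 (adjusted p = 0.98), and 0.389% of all clones passed at this age. Both missed the threshold.

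In young birds the TTR ratios were smaller than at 5 and 7 weeks, and the spread over all clones was small too (SD 0.07 at 1 week and 0.06 at 3 weeks). BG711897 ranked 30 from the most negative at 1 week and 19 at 3 weeks, and BI393775 ranked 956 and 80. At 1 week BG711897 ran from -1.76 to 0.20 over 12 arrays with a median of -0.18. Replicate 9 alone gave -1.76, and the next lowest array was at -0.72. BI393775 ran from -0.25 to 0.13 with a median of -0.04. The line effects at 1 week were -0.33 (95% interval -0.64 to -0.02, unadjusted p = 0.039 and adjusted p = 1.00 in limma) and -0.04. Without replicate 9 the effect of BG711897 at 1 week was -0.19. The line effects at 1 week were -0.36 and 0.00009 in the first hybridisation round alone, and -0.31 and -0.06 in the second. At 3 weeks BG711897 ran from -0.77 to 0.11 over 10 arrays with a median of -0.21, and BI393775 from -0.28 to 0.05 with a median of -0.14. The line effects were -0.25 and -0.12 (adjusted p = 1 for both in limma), with -0.19 and -0.22 in the first round and -0.27 and -0.09 in the second. At 1 week 1 of 6432 clones passed (0.0155%), and at 3 weeks limma called 0 clones (0%), with 27 at an unadjusted p under 0.05. Negative values were the more common at both ages, on 9 of 12 and 8 of 10 arrays in each clone.

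Averaged over the 6 ages with equal weight, TTR passed in both clones, with -0.64 (SE 0.10, adjusted p = 2.82e-05 in limma) for BG711897 and -0.38 (SE 0.06, adjusted p = 2.09e-05) for BI393775. With the sign turned the means are 0.64 and 0.38, and 4.31% of all clones passed in the mean. Both calls held without any single array of the 38. The F test of equal line effects over the ages was passed by both (F = 6.74, adjusted p = 0.0168, and F = 8.17, adjusted p = 0.00586, in limma), as it was by 1.59% of all clones. Without replicate 2 at 7 weeks the F test of BG711897 reached an adjusted p of 0.071.

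Late minus early, the mean line effect at 5 to 11 weeks minus that at 1 and 3 weeks, asks whether the line difference depends on age. It was -0.46 for BI393775 (SE 0.10, adjusted p = 0.0150 in limma) and -0.52 for BG711897 (SE 0.17, adjusted p = 0.22), or 0.46 and 0.52 turned. Thus 1 of the 5 clones passed, against 1.15% of all clones. Without replicate 4 at 5 weeks BG711897 passed too, at -0.69 and an adjusted p of 0.00128. With all 3 arrays that run against their dye labels left out, 169 of 6384 clones passed late minus early, against 74 of 6432 in the main fit. Of the steps between neighbouring ages other than 7 to 9 weeks, none was passed by a member clone. All clones passed these steps at 0% (3 minus 1 week), 0.171% (5 minus 3 weeks), 0.42% (7 minus 5 weeks) and 0.0777% (11 minus 9 weeks). The TTR step from 3 to 5 weeks was -1.0 (SE 0.31, adjusted p = 0.47) for BG711897 and -0.51 (SE 0.19, adjusted p = 0.64) for BI393775. Without replicate 4 at 5 weeks these steps were -1.65 (adjusted p = 0.000178 in limma) and -0.72 (adjusted p = 0.0199), past the threshold. As that array was picked from these same data, its removal is no independent test.

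Array by array the TTR clones ran together only in part. Across the 38 arrays their turned values correlated at r = 0.58, across the 8 arrays of 5 and 7 weeks at 0.36, and across the 30 arrays of the other ages at -0.02. These arrays share the platform, the dye labelling and, at 1 and 3 weeks, some birds. The 2 spots of BI393775 lie in blocks 43 and 48 and gave different values on single arrays. At 7 weeks the spot in block 43 gave -1.17, -0.36, -0.58 and -1.49, and the spot in block 48 gave -0.06, -1.16, -1.39 and -2.26. Both spots were negative on all 4 arrays, and each passed at 7 weeks when tested as its own row, at -0.90 (adjusted p = 2.8e-05 in limma) and -1.22 (adjusted p = 0.0147). At 5 weeks neither passed by itself, with -0.45 (adjusted p = 0.14) and -0.80 (adjusted p = 0.34). The dye effect was 0.07 in block 43 and 0.46 in block 48. Over the 30 arrays of the other ages the spots correlated at -0.48, that is, they tended to deviate in opposite directions where TTR had no line effect past the threshold. At 9 weeks the spot in block 48 gave 0.60 and 0.60 with HG on 555 and -0.67 and -1.15 with HG on 647. The spot in block 43 split the other way, with -0.39 and -0.25 against 0.19 and 0.26. The part of the dyes in this r was not tested.

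GHR binds growth hormone on hepatocytes. Its clone AW198548 stayed between -0.16 and 0.13 over the 12 arrays of 1 week (median -0.05) and between -0.16 and 0.47 over the 10 arrays of 3 weeks (median -0.02). At 5 weeks it gave 0.48, -0.14, 0.21 and -0.17. At 7 weeks it gave 0.13, -0.50, 0.11 and -0.11. The arrays fell on both sides of 0 at each of these ages. At 5 and 7 weeks the signs split by dye, positive with HG on 647 and negative with HG on 555. At 9 weeks the values were 0.21, -0.01, -0.12 and 0.03, and at 11 weeks 0.61, -0.25, 0.37 and 0.04. At 11 weeks 3 of 4 arrays were positive, with a line effect of 0.19 (SE 0.11, 95% interval -0.02 to 0.41, adjusted p = 1.00 in limma), or -0.19 turned. With arrays weighted by their estimated quality it became 0.45 (adjusted p = 0.00152 in limma), the only one of 16 other fits in which it passed, and the F test of GHR passed in that fit too (F = 7.54, adjusted p = 0.00562). The range over all of those fits, which keep the dye reading used here, was 0.13 to 0.45. In the weighted fit 504 of 6432 clones passed at 11 weeks, against 25 in the main fit. The mean of GHR over ages was 0.03 (95% interval -0.04 to 0.11), and the end of the interval further from 0 is a 1.08-fold difference.

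IGFBP2 holds insulin-like growth factors in the circulation. Its clone BI391593 ran from -0.22 to 0.23 at 1 week (median 0.00, 12 arrays) and from -0.32 to 0.16 at 3 weeks (median 0.02, 10 arrays). At 5 weeks it gave 0.18, -0.18, 0.11 and -0.30, and at 7 weeks 0.05, -0.13, 0.27 and 0.10. Signs were mixed at both ages, and at 5 weeks they split by dye, positive with HG on 647 and negative with HG on 555. At 9 weeks all 4 arrays were positive, with 0.04, 0.14, 0.14 and 0.27, and the line effect was 0.15 (SE 0.08, 95% interval -0.02 to 0.31, adjusted p = 0.48 in limma), or -0.15 turned. At 11 weeks it gave 0.04, 0.11, -0.09 and 0.05, 3 of 4 positive. The mean over ages was 0.03 (95% interval -0.03 to 0.09), and no contrast passed.

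DIO1 was measured by 2 clones that differ in how often they gave a value. Clone AA495711 ran from -0.13 to 0.20 at 1 week (median 0.03, 12 arrays) and from -0.14 to 0.11 at 3 weeks (median -0.03, 10 arrays). Its 4 arrays gave -0.08, 0.16, 0.00 and 0.05 at 5 weeks and -0.17, 0.45, -0.01 and 0.04 at 7 weeks. They gave 0.04, 0.04, 0.04 and 0.22 at 9 weeks and -0.12, 0.17, -0.00 and 0.04 at 11 weeks. Values sat close to 0, apart from replicate 2 at 7 weeks and replicate 4 at 9 weeks. The mean over ages was 0.04 (95% interval -0.01 to 0.09, adjusted p = 0.48 in limma). Of its 29 spots, 11 had enough values to be tested singly, and 0 of them passed in limma at any age or in any contrast, with at most 1 in each at an unadjusted p under 0.05. On a single array the spots of this clone varied with a median SD of 0.13 to 0.16 at 1 and 3 weeks and of 0.22 to 0.35 at 5 to 11 weeks.

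**Figure D2:**
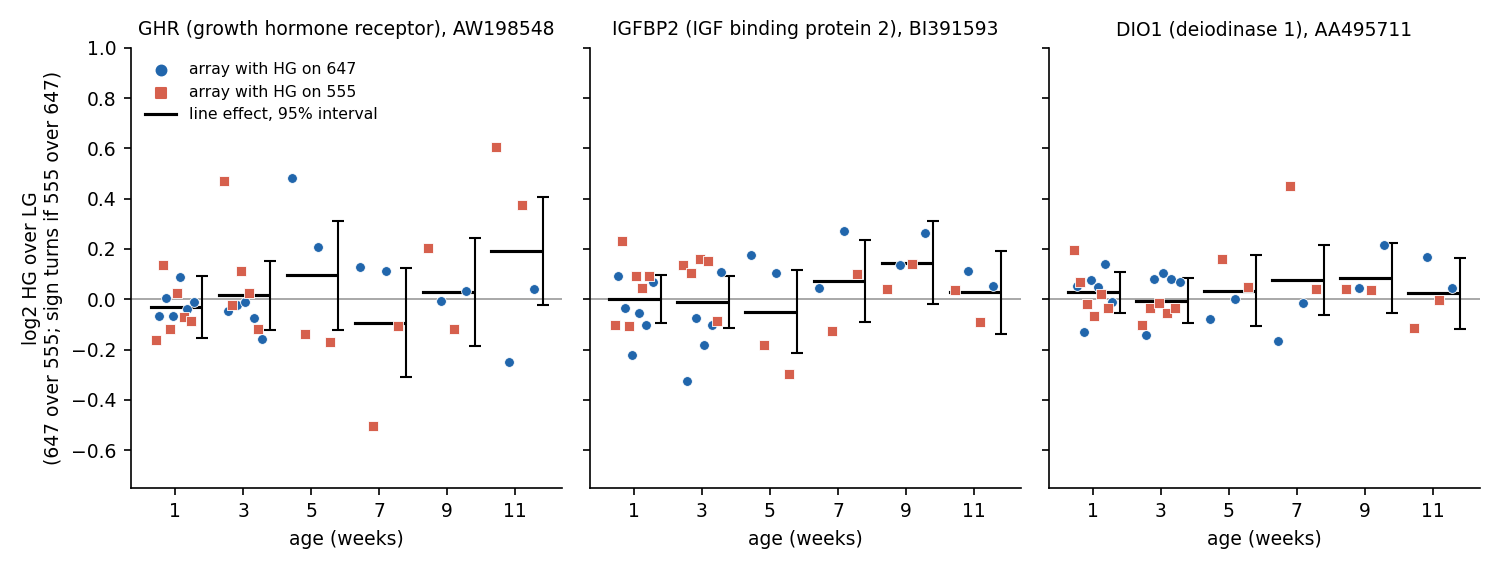
Log2 ratio of HG over LG liver (y axis, signed as 647 over 555) for GHR, IGFBP2 and the DIO1 clone AA495711 by age in weeks (x axis, evenly spaced). Each point is 1 array, circles with HG on 647 and squares with HG on 555; black lines are fitted line effects and bars their 95% intervals, all of which include 0.

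The DIO1 clone BG710220 gave -0.42, -0.63, -0.89 and -0.22 at 7 weeks, negative on all 4 arrays. With the arrays of 5 to 11 weeks alone the line effect was -0.54 (SE 0.23, unadjusted p = 0.033, adjusted p = 0.64 in limma), or 0.54 turned, and missed the threshold. At 5 weeks the arrays gave -0.36, -0.12, -0.86 and 0.91, with replicate 4 again opposite to the others. At 9 weeks they gave -0.41, 0.48, -0.12 and 0.59, and at 11 weeks -0.47, 0.07, -0.30 and 0.02, positive on the arrays with HG on 647 and negative on those with HG on 555. The line effects at 5, 9 and 11 weeks were -0.11, 0.13 and -0.17, none past the threshold. Across these 16 arrays BG710220 correlated with TTR clone BG711897 at r = 0.76, with TTR clone BI393775 at 0.19 and with the other DIO1 clone at 0.17. By rank the 2 DIO1 clones correlated at 0.56 over these arrays. Their Pearson r was -0.02 over the 8 arrays of 5 and 7 weeks and 0.73 over the 8 arrays of 9 and 11 weeks. In these turned values, with the shared dye effect removed, the 2 DIO1 clones thus ran together at 9 and 11 weeks but not at 5 and 7 weeks. The deposited ratios before turning were not compared in this way. Their difference, and the part of the dyes in these r, were not tested.

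**Figure D3:**
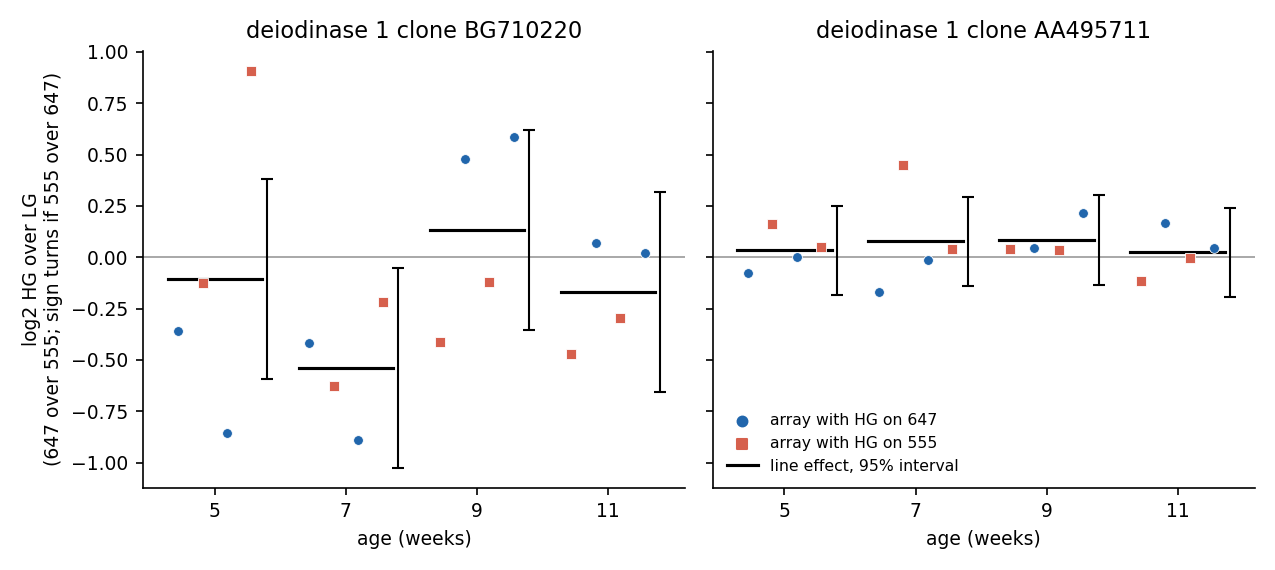
Log2 ratio of HG over LG liver (y axis, signed as 647 over 555) for the 2 DIO1 clones at 5 to 11 weeks (x axis, age in weeks). Each point is 1 array, circles with HG on 647 and squares with HG on 555; black lines are line effects fitted with these 16 arrays alone and bars their 95% intervals. The 7-week arrays of clone BG710220 all lie below 0, between -0.89 and -0.22, while those of clone AA495711 lie on either side of it.

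The other genes of these pathways, and the cell type markers further below, were read from lists. A gene counts as passed where any of its clones did, whereas the shares over the whole array are of clones. Of 24 genes in the list of growth hormone receptor and signalling, 6 were tested and 0 passed in limma at any age, in the mean or late minus early. At most 4.31% of all clones passed any of these contrasts, so a count of 0 among so few genes lies near that share. The signal transducer STAT5A had a mean line effect of 0.07 (SE 0.03, adjusted p = 0.35), and the feedback inhibitor SOCS2 had 0.06 and 0.08 in its 2 clones. PTPN1, a phosphatase that acts on insulin and growth hormone signalling in mammals, stood at -0.42 at 7 weeks (adjusted p = 0.098), and GHRHR, the receptor for the releasing hormone, at 0.18. The median of the list at 7 weeks was 0.06, beside 0.03 over all clones. Of 25 insulin-like growth factor genes, 3 were tested (IGFBP2, INSR and IGF2R) and 0 passed in limma, again near the share over all clones. The insulin receptor INSR had a mean effect of 0.04 and IGF2R, which clears insulin-like growth factor in mammals, 0.08. IGF1 itself is not among the clones analysed here.

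Of 22 genes of thyroid hormone transport and deiodination, 11 were tested. TTR was the only one past the threshold at 5 and 7 weeks, in the negative direction, and albumin also passed in the mean over ages. Of all clones, 0.777% passed at 5 weeks, 2.91% at 7 weeks and 4.31% in the mean. Albumin (ALB), the abundant plasma carrier that also binds thyroid hormone, stood at -0.43 in the mean in clone BM439630 (SE 0.10, adjusted p = 0.00471 in limma) and at -0.24 in clone BM426084 (adjusted p = 0.10). The call held without any single array. At 5 weeks these clones stood at -0.94 and -0.59 and at 7 weeks at -0.70 and -0.56, none past the threshold. TXN (thioredoxin) had a mean of 0.10 in clone BG710452 (adjusted p = 0.13) and 0.02 in clone BM487024, and TXNRD1, thioredoxin reductase, 0.11 (adjusted p = 0.27). The list's median at 7 weeks was 0.02, beside 0.03 over all clones.

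Of 23 thyroid hormone receptor and partner genes, 5 were tested and 0 passed in limma, near the share over all clones (at most 4.31%, in the mean). The receptor THRB had a mean effect of 0.08 (adjusted p = 0.41) and 0.01 at 7 weeks. The coactivator subunit MED1 (0.04), the corepressor NCOR1 (0.05) and its partner TBL1X (-0.06 to 0.04 over 3 clones) were close to 0 in the mean. The median of the list at 7 weeks was 0.11.

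Of 21 liver genes known in mammals or birds to respond to thyroid hormone, 7 were tested and 2 passed at 7 weeks, both negative, when 2.91% of all clones passed. THRSP (thyroid hormone responsive protein, a lipogenic regulator) stood at -2.23 at 7 weeks (SE 0.41, 4.69-fold, adjusted p = 0.000525 in limma) and at -0.66 in the mean (adjusted p = 0.00560). Both calls held without any single array that bears on them. The fatty acid synthase (FASN) clone BG711257 stood at -1.65 at 7 weeks (adjusted p = 0.00806) and -1.61 at 9 weeks (adjusted p = 0.0260), whereas FASN clone CD217873 stood at 0.14 and -0.01. The 7-week call of FASN was lost without replicate 2 or 3, and the 9-week call without replicate 1, 3 or 4, with adjusted p up to 0.12 and 0.43. In the mean FASN BG711257 stood at -0.87 (adjusted p = 4.72e-05), a call that held without any single array. The calcium pump ATP2A2 and malate dehydrogenase MDH1 had means of 0.06 and -0.06. The median of the list at 7 weeks was -0.06.

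Of 24 genes of retinol transport, 8 were tested and 1 passed, at 7 weeks, when 2.91% of all clones did. RBP4A, annotated as a retinol binding protein, stood at -0.59 at 7 weeks in clone BG641611 (SE 0.15, adjusted p = 0.0167 in limma), in the same direction as TTR, which carries retinol binding protein in the blood. The call was lost without replicate 2 or 3 at 7 weeks (adjusted p up to 0.14). The clone annotated RBP4, BI390936, stood at 0.00 at 7 weeks. BCO1, which cleaves carotene, the retinoic acid receptor RARA and the retinol dehydrogenase RDH11 had means of 0.02, 0.07 and 0.04. The median of the list at 7 weeks was -0.02.

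**Figure D4:**
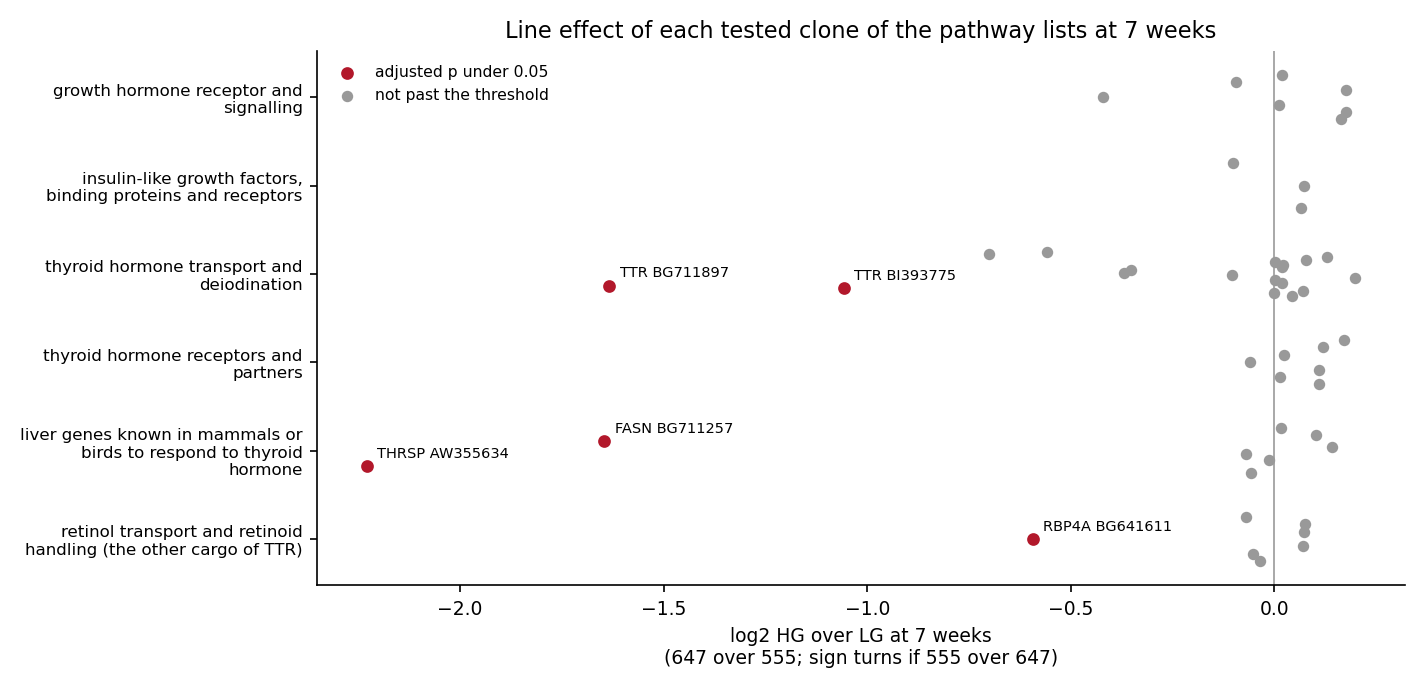
Line effect at 7 weeks (x axis, log2 HG over LG, signed as 647 over 555) of every tested clone of the 6 pathway lists (y axis). Red points have an adjusted p under 0.05 in limma, grey points do not; the 5 red clones belong to TTR, THRSP, FASN and RBP4A and all lie below 0.

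Markers of other cell types and other hepatocyte genes were read at the same age. Among the hepatocyte markers tested, 4 of 14 genes passed at 7 weeks, when 2.91% of all clones did, opposite in sign to TTR for 3 of them. The 14 genes hold 20 tested clones, whereas 2.91% is a share of clones and not of genes. Transferrin (TF) stood at 0.93 (adjusted p = 3.4e-07 in limma), and of the fibrinogen chains FGB stood at 1.35 and FGA at 1.18 and 1.25 in 2 of its 3 clones. Without replicate 1 at 7 weeks FGB and the first of these FGA clones, which also failed without replicate 4, missed the threshold (adjusted p up to 0.078 and 0.083). The amino acid enzyme TAT stood at -0.86 (adjusted p = 0.037), a call lost without replicate 2, 3 or 4. The median of the 14 hepatocyte genes was -0.18, from -0.86 to 1.35. Of 3 erythroid genes, the globin gene HBBA stood at 0.86 (adjusted p = 1.63e-05), and of 6 leukocyte and Kupffer cell genes tested CTSS stood at 0.35 in 1 of 4 clones, a call lost without replicate 4. By gene, the medians of these lists were 0.33 (range -0.01 to 0.86) and 0.12 (0.07 to 0.16). No gene of matrix and vessel cells (7 tested), bile duct cells (2) or pancreas (1) passed at 7 weeks in limma. The part of blood and other cells in the TTR difference was not tested.

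The clones most like each member were taken from the 3858 tested clones with a symbol (3857 for TTR), by Pearson r of the turned values over at least 30 arrays, which share the platform, the dyes and some birds. The clone most like TTR BG711897 was BG711453, annotated as the proton pump subunit ATP6V1A, with r = 0.95 over 38 arrays and 0.90 over those other than 5 and 7 weeks. Its line effect was -1.06 at 5 weeks and -1.60 at 7 weeks, and it was -0.06 by 9 weeks. The other tested ATP6V1A clone, BI390617, stood at 0.09 and 0.07. Next came clones of HIBCH (0.85), SPIA5 (0.80), SPP2 (0.79) and C6orf62 (0.79), whose r fell to between 0.23 and 0.42 outside 5 and 7 weeks. Of the 5 most alike, 3 had accession numbers that begin like that of the TTR clone (BG711), as 1.68% of the clones compared did.

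TTR BI393775 was most like clones of TPT1 (0.74), PRELID1 (0.73), TLE4 (0.73), ATP5H (0.71) and TAB1 (0.70), none of them among those most like the other TTR clone. Outside 5 and 7 weeks their r was 0.63, 0.44, 0.70, 0.16 and 0.33 in the same order. The most opposed was VNN2, annotated as a vanin, with r = -0.77, or -0.30 outside 5 and 7 weeks. VNN2 stood at 2.02 at 7 weeks (adjusted p = 2.07e-06 in limma). Next came METAP1D (-0.69), and the clones most opposed to TTR BG711897 were those of NIF3L1 (-0.72) and WFS1 (-0.70). GHR was most like clones of PI4KA (0.88), FAM49B (0.81), SUGT1 (0.77), MARC1 (0.75) and ATF1 (0.72). Of these 5 clones, 3 share the first characters of their accession (AW198) with the GHR clone, as 1.81% of those compared did. IGFBP2 was most like clones of R3HCC1 (0.89), RNPS1 (0.87), SGPL1 (0.85), MYL12A (0.85) and MRPS18A (0.82). Likeness here is of single clones, and other tested clones of a gene could differ. At 5 weeks ATF1 stood at -0.24 in BM489945 and 0.23 in CD218677, and TAB1 at -0.35 in BG710962 and 0.26 in BI067793. HIBCH had the same sign in its 2 clones, at -0.31 and -0.14. DIO1 AA495711 was most like clones of PRKCI (0.92), NSL1 (0.90), STAR (0.88), CAND1 (0.87) and RAB18L (0.86), although it is itself a mean over up to 22 spots. Most opposed to it were clones of THRAP3 (-0.83) and MARC1 (-0.81). For GHR these were IFNGR1 (-0.73) and MKS1 (-0.73), and for IGFBP2 they were ACTG1 (-0.66) and SSR3 (-0.65). Among the members, DIO1 AA495711 and GHR were opposed at r = -0.60 over 38 arrays and -0.77 over the 16 arrays of 5 to 11 weeks, at ages when neither showed a line effect past the threshold. At 5 and 7 weeks GHR was higher on the arrays with HG on 647 than on those with HG on 555, and DIO1 AA495711 was lower. At 11 weeks each of them split by dye the other way. The part of a dye effect that differs between ages in this r was not tested.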

How the data were processed

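Liver RNA of HG and LG chickens was compared on 40 2-colour spotted cDNA arrays at 6 ages. The deposited values are a linear dye ratio for each spot, as their range shows; their normalization, background correction, spot filter and numerator are not given in the sources used here. Array medians near 1 were taken to mean that ratios were already normalized, so none was added; signal over background is not known, and the number of arrays limits the precision.

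The log2 of each ratio was taken, spots of 1 clone were averaged, and a clone was tested if, at every age, 75% or more of the arrays had a value. Symbols were those of the array's annotation table and may be out of date: of 10601 annotated spots, 10455 had an entrez ID in the RefSeq table of GRCg7b, and 0 symbols were updated. The model was fitted in limma 3.58.1 (R 4.3.3; lmFit and eBayes) with a line effect per age, +1 or -1 by dye label, and 1 dye effect (median 31 residual degrees of freedom). Tests were two-sided, with Benjamini-Hochberg adjustment over the 6432 clones of each contrast and a threshold of 0.05. The design set all 40 arrays; 38 were used, because 2 were near-identical under opposite labels. The fits were tested on simulated data with known changes. DIO1 BG710220 missed the filter and was fitted on the arrays of 5 to 11 weeks, a choice made after seeing the values.

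The members, the gene lists and the alternatives were chosen with earlier results of these data known. Genes named beyond the members are those of the lists with an adjusted p under 0.05 and up to 4 per list with the smallest p in the F test or the mean. ALB is in both a pathway and a marker list. Markers named outside this rule, the RBP4, FASN, ATP6V1A, ATF1, TAB1 and HIBCH second clones and the clones most opposed to each member were named to set beside these. The alternatives were another reading of the ratio, filter, scaling, centring, array weights, dye terms, rounds, a replicate block, single spots, the near-identical arrays and leaving out each array.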

Additional observations from a re-analysis of the deposited data

Results flagged for a closer look

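A single array stood apart from the others of its age in 2 of the 29 groups of member values tested, and chance gives about 1 in 20. These groups do not cover every clone and age. TTR BG711897 on replicate 9 at 1 week (-1.76, with the next lowest array at -0.72) is not among those flagged. DIO1 clone AA495711 gave 0.22 on replicate 4 at 9 weeks, while the other 3 arrays lay between 0.037 and 0.043. GHR gave 0.47 on replicate 1 at 3 weeks, and that array is one of 3 known to run against their dye labels.

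The TTR line effect differed between ages by its own test in limma. For BI393775 late minus early was -0.46. The change from 7 to 9 weeks was 1.65 for BG711897 and 0.96 for BI393775. The F tests over the 6 ages gave 6.74 and 8.17. Each of these passed an adjusted p of 0.05, with the dependence on single arrays given above. All of these calls were lost with the first round alone at 1 and 3 weeks, with arrays scaled to the same spread, or with no dye effect.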

How the results depend on the processing

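Over 1792 recomputed values of the 5 tested clones, 1614 kept their sign and their side of the threshold, 67 lost and 13 gained a call, and 84 changed sign without a call on either side (largest absolute value 0.70). The 14 reversals all came from reading the ratio as already HG over LG. In that reading TTR BG711897 stood at 0.45 at 7 weeks, 0.27 in the mean and -0.075 for 9 minus 7 weeks. TTR BI393775 stood at 0.47 at 5 weeks, 0.53 at 7 weeks, 0.27 in the mean, 0.016 late minus early and -0.50 for 9 minus 7 weeks. DIO1 AA495711 stood at -0.11 at 1 week, -0.18 at 5 weeks, -0.28 at 7 weeks and -0.12 in the mean, GHR at -0.36 at 11 weeks and IGFBP2 at 0.21 at 5 weeks. The last 6 passed the threshold there, as did the mean of TTR BI393775. The count of member clones rose from 0 to 1 at 1 week and at 11 weeks and was 1 at 7 weeks. The 2 at 5 weeks were DIO1 and IGFBP2. Calls were common over all 6432 clones in that reading. The youngest age had 1250, the 5-week contrast 3088, the 7-week contrast 2272, the 11-week contrast 1034 and the mean 3020. The main fit had 1, 50, 187, 25 and 277 in the same order. The member calls in that reading thus do not stand out from the rest of the array. The cause of the changes below was not tested.

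At 5 weeks the count of 2 fell to 0 with separate fits, scaled arrays, first-round arrays, the replicate block or the arrays of 5 to 11 weeks alone (chosen after seeing the data), and to 1 with no dye effect, second-round arrays or each spot by itself. Over all clones 50 passed at 5 weeks in the main fit, against 0 with separate fits, 6 with scaling, 10 with first-round arrays and 17 with the block. At 7 weeks it fell from 2 to 1 with separate fits, scaled arrays or 5 to 11 weeks alone, and to 0 with array weights, which gave 1 at 11 weeks. With array weights 0 of 6432 clones passed at 7 weeks and 504 at 11 weeks, against 187 and 25 in the main fit. In the mean it was 1 in place of 2 with first-round arrays or the block. Late minus early fell from 1 to 0 with scaling, no dye effect, either round alone or the block. It rose to 2 without the 3 arrays that run against their dye, when 169 of 6384 clones passed, against 74 in the main fit. The F test count fell from 2 to 0 with scaling, no dye effect, first-round arrays or the block, and to 1 with the second round. Between neighbouring ages the count of 2 fell to 0 with scaling, no dye effect or either round, to 1 with weights or the block, and rose to 4 without the 3 arrays. Leaving out 1 array gave counts of 0 to 2 at 5 weeks, 2 to 2 at 7 weeks and in the mean, 1 to 2 late minus early and in the F test, 0 to 4 between neighbouring ages and 0 to 0 at 1, 3, 9 and 11 weeks.

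Birds differ between ages, but the replicate number is tied to the dye orientation. Within each age, odd-numbered arrays have the orientation opposite to even-numbered ones. At 5 and 7 weeks this order is turned against that of the other ages. Same-numbered arrays correlated at a median of 0.18 (from -0.36 to 0.57, 58 pairs), against -0.002 for arrays of different numbers (510 pairs). Of 38 arrays, 9 ran best with their own number. The part of the dye orientation in these r, and in the fit with the replicate block, was not tested. With the replicate block TTR at 7 weeks stood at -1.67 (adjusted p = 0.00337 in limma) and -1.06 (0.00366), still past the threshold. The calls at 5 weeks (adjusted p = 0.098 and 0.25), of BI393775 late minus early (0.65) and of BI393775 in the mean (0.054) were lost.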

Other observations

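TTR BG711897 and the clone annotated ATP6V1A, BG711453, correlated at 0.95 over 38 arrays and at 0.90 over those other than 5 and 7 weeks, while the TTR clones themselves correlated at -0.02 there. Which transcript each of these spots measured was not tested.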
